A study of Mus musculus with 8 samples.

Results

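Peaks of phosphorylated RNA polymerase II were examined at 10 mouse genes for pausing and elongation factors, out of 21535 protein-coding genes with a position and strand. The genes were chosen by name. They were Supt5 and Supt4a, which encode the DSIF heterodimer, the NELF subunit genes Nelfa, Nelfb, Nelfcd and Nelfe, Paf1 and Ctr9 of the PAF complex, Supt6 and Ell. A peak belonged to a gene when it overlapped the RefSeq GRCm38.p6 interval of that gene extended by 3 kb on each side, which 205 peaks of the 8 deposited lists did.

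After initiation, RNA polymerase II is often held a short way inside a gene by DSIF and NELF. The kinase P-TEFb releases it by phosphorylating both factors and the polymerase tail, upon which NELF leaves while DSIF, the PAF complex and Supt6 travel on with the enzyme. Phosphorylation of the tail on serine 5 (Ser5P) is placed near the start of genes, and phosphorylation on serine 2 (Ser2P) accumulates as elongation goes on. Here the genes of these factors were the templates, so the peaks describe polymerase on them and not the amount of any factor.

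The cells were MEL, a mouse erythroid leukaemia line. One genotype was labelled Myrlin KD, a knockdown of the RNA made from the Myb enhancer at −81 kb, and the other was labelled dCAS control. CUT&Tag, in which an antibody directs a transposase to cut nearby chromatin, was carried out with antibody D9N5I against Ser5P of the polymerase subunit Rpb1 and with antibody E1Z3G against Ser2P. This gave 2 libraries in each of 4 groups, namely Ser5P KD, Ser5P control, Ser2P KD and Ser2P control. All groups were CRISPR-edited or control MEL cultures in the same medium. How many clones each line holds, and how the cultures of the 2 biological replicates were separated, is not given in the sources used here, so a p-value here reflects how far these libraries scatter, and that scatter may be technical.

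Peak lists held 21574 to 25441 peaks for Ser5P and 20793 to 32125 for Ser2P. Relative depth, read as the background pileup behind the peaks, was 0.649 and 0.841 in the Ser5P KD libraries against 0.566 and 0.639 in their controls. For Ser2P it was 1.12 and 1.03 in the KD libraries against 0.780 and 0.439 in the controls. The median peak was also wider in each KD library (532 and 533.5 bp for Ser5P, 478 and 479 bp for Ser2P) than in each control (486 and 497 bp for Ser5P, 381 and 428 bp for Ser2P). Depth and width therefore moved with the KD label in both antibodies, and their part in the differences below was not tested. Ser2P control 2 stood apart as the shallowest library with the shortest list. Within 2000 bp of the −81 kb point, where Myrlin is made, Ser5P covered 275 and 0 bp in KD and 513 and 237 bp in control libraries, and Ser2P covered 0 and 316 bp in KD and 302 and 0 bp in control libraries. Such peaks do not measure the transcript, so the knockdown itself was not checked. Of 10 erythroid marker genes, 5, among them Klf1, Tal1, Epor and Nfe2, had a Ser5P promoter peak in all 4 Ser5P libraries and 3 had none. No T and B lymphoid (0 of 8), myeloid (0 of 7) or non-haematopoietic marker (0 of 8) had a Ser5P promoter peak in all 4 libraries.

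Each gene was read in windows counted from the outer ends of its RefSeq interval. The promoter window reached 1000 bp to each side of the 5′ end, and the 3′ end window ran from 1000 bp before to 3000 bp past the 3′ end. The gene body lay between these windows, and an upstream window covered the 2000 bp before the promoter window. Values below are the bp of a window covered by the peaks of a library. A gene was called by presence when both libraries of a line had a peak and neither library of the other line did.

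The promoters carry the peaks that all the genes shared, so the sequences of 4 of them are printed. RefSeq promoter sequences (GRCm38.p6, from 250 bases before to 50 after the RefSeq start) were at hand for 7 of the 10 genes, that is all but Nelfcd, Nelfe and Ctr9. Supt5 (chr7:28338670-28338969, minus strand), Nelfa (chr5:33936222-33936521, minus strand) and Ell (chr8:70539425-70539724, plus strand) are shown because they share the letters AGATGGC, which occur in the known motif of the factor YY1. Paf1 (chr7:28392746-28393045, plus strand) is shown for its 3 copies of CCAAT, the letters known for the factor NF-Y. Capitals mark matches to AGATGGC or to TCTCGCG or to CCAAT on either strand, so GCCATCT in Ell is AGATGGC read on the other strand. Each sequence runs 5′ to 3′ along the gene's own strand.
Supt5: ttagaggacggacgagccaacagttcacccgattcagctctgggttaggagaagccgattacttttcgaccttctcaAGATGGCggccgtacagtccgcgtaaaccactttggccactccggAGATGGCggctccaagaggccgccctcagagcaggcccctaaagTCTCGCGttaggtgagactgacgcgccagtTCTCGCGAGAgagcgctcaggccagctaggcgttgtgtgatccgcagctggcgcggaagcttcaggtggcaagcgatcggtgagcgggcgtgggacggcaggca
Nelfa: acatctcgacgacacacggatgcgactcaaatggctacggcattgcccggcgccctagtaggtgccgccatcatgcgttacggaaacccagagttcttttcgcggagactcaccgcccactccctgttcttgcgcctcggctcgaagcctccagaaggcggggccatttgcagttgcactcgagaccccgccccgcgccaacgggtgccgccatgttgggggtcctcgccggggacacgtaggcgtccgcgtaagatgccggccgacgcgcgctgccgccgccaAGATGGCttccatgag
Ell: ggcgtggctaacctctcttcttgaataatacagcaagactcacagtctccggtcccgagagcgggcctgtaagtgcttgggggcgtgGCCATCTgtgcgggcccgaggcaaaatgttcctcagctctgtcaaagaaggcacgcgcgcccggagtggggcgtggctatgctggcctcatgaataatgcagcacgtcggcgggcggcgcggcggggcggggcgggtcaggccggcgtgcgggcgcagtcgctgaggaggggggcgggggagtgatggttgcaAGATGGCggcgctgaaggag
Paf1: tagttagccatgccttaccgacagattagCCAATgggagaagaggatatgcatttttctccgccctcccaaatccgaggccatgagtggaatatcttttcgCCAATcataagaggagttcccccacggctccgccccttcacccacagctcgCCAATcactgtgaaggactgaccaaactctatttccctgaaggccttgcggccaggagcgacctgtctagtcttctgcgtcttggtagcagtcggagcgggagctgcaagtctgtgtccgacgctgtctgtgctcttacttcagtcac

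AGATGGC was found on either strand in 3 of the 7 promoters, against 6.01% of 21263 promoters of the same length. Counting from the RefSeq start, its matches began at −173 and −128 in Supt5, at 35 in Nelfa, and at −163 and 31 in Ell. That start lies 85 bp inside the outer 5′ end of the interval in Supt5, 30 bp in Nelfa and 269 bp in Supt6. In Supt4a, Nelfb, Paf1 and Ell it is the outer 5′ end, from which all peak summits below are counted. TCTCGCG (other strand CGCGAGA) was found in Supt5, at −84, −54 and −51, and in Supt4a, at −173, against 3.48% of promoters. The last pair in Supt5 overlap on opposite strands. CCAAT (other strand ATTGG) was found in Paf1 alone, at −221, −149 and −98, against 38.2% of promoters. GGGCGG (other strand CCGCCC), the GC box, was found in 6 of the 7 promoters, all but that of Supt6, against 46.2%. TATAAA (12.6% of promoters) was found in Nelfb and CCGGAAG (11.6%) in Supt4a. CACGTG (7.84%), AGATAA (9.65%), GCATGCG (4.44%) and TGACGTC (3.84%) were found in 0 of the 7. A match describes letters and not a site.

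Polymerase peaks lay over these sequences. The 300 bases of Supt5, Nelfa and Paf1 were covered whole in all 8 libraries, and those of Ell in 4 libraries, with 230 bp as the lowest cover. GC content was 61.3% in Supt5, 65.3% in Nelfa, 66.3% in Ell and 54% in Paf1, against a median of 56.3% over all promoters. Supt5 held 28 CpG, Nelfa 36, Ell 29 and Paf1 14, against a median of 13. The promoter of Supt4a, not printed, had the highest values of the 7, with a GC content of 71% and 37 CpG.

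Every one of the 10 genes had a promoter peak of both marks in all 8 libraries, which 34.5% of all genes did. Of the 205 peaks, 83 had their summit in a promoter window, 73 in a gene body, 31 in a 3′ end window and 8 upstream, while 10 had a summit beyond the extended interval. Merged across libraries, they formed 47 sites, of which 16 were found in all 8 libraries and 14 in 1 library. Those 16 were the 10 promoters, 2 gene body sites, 2 sites in 3′ end windows, 1 upstream site and 1 site whose summit lay past the interval of Nelfb. In the gene bodies 11 of 25 sites were found in a single library, against 0 of 10 promoter sites. The plot of promoter coverage shows the values of every library.

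**Figure D1:**
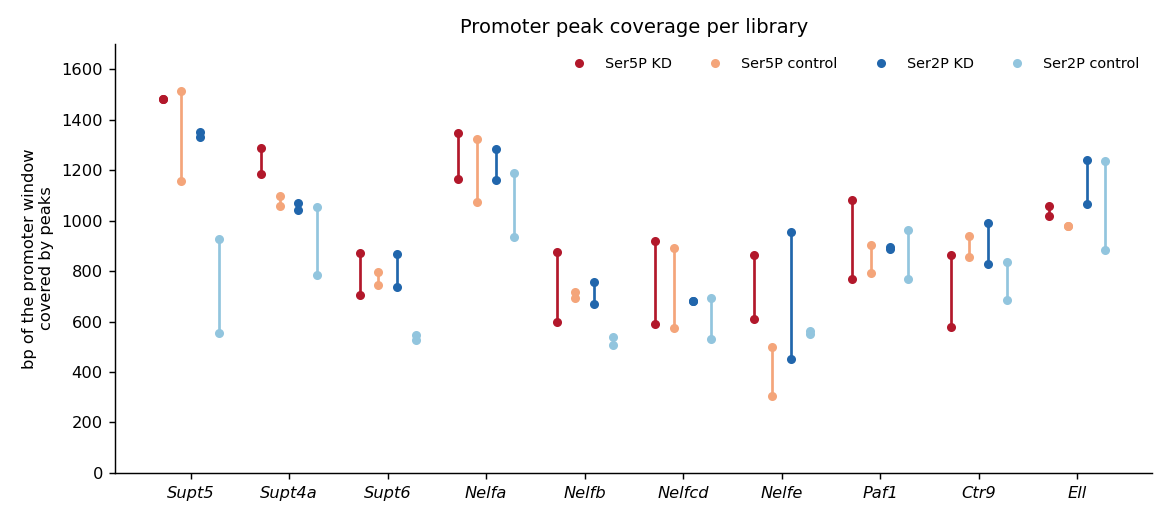
Promoter coverage (bp of the promoter window covered by peaks, y axis from 0) of the 10 genes in each library, with a point per library and a line joining the 2 libraries of a group. Supt5, Supt4a, Nelfa and Ell have high points in most groups, and Nelfe reaches down to 305 bp. The 2 Ser2P KD points lie above both Ser2P control points in Supt5, Supt6 and Nelfb.

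Supt5 encodes the large DSIF subunit, which binds polymerase throughout transcription. It occupies chromosome 7 from 28314891 to 28338804 (minus strand). Its promoter was among the most widely covered, with a mean of 1225 bp over 8 libraries, above 95.0% of the 7426 genes marked in all 8. Ser5P covered 1483 and 1483 bp in KD and 1513 and 1155 bp in control libraries, so the lines overlapped. Ser2P covered 1331 and 1351 bp in KD against 928 and 554 bp in control libraries, and both KD values lay above both controls. In the Ser2P KD libraries a single peak reached upstream to −911 bp in KD 1 and to −987 bp in KD 2, counted from the 5′ end. Ser2P control 1 had a separate upstream peak with its summit at −825 bp, and Ser2P control 2 had no peak there. In limma the difference was 29.99 ± 8.05 percentage points of the window (SE, adjusted p = 0.148), which did not pass the threshold of 0.05. The difference of the means was 600 bp. It was 274 bp with a promoter window of 500 bp to each side, which leaves out the farther upstream stretch.

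Supt4a encodes the small zinc-finger subunit of DSIF (plus strand of chromosome 11, 87737551 to 87743623). Ser5P covered 1287 and 1184 bp in KD against 1098 and 1057 bp in control libraries, with both KD values above both controls. Ser2P covered 1042 and 1068 bp in KD and 1054 and 784 bp in control libraries, and the lines overlapped. The Ser5P difference was 7.90 ± 5.29 points (limma, adjusted p = 0.917). The means differed by 158 bp, and by 88.5 bp with a promoter window of 500 bp to each side. The summit of its strongest promoter peak lay between −625 and −94 bp of the 5′ end, depending on the library. No gene body or 3′ end window of Supt4a held a peak in any library.

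The NELF genes spanned the range of promoter coverage. Nelfa, whose product is the subunit that contacts polymerase, lies on the minus strand of chromosome 5 (33897916 to 33936301). Its promoter had 1165 and 1348 bp of Ser5P in KD and 1075 and 1323 bp in control libraries. Ser2P covered 1162 and 1284 bp in KD and 1187 and 935 bp in control libraries, and for neither mark were the lines apart. Its summit lay at −232 bp in all 8 libraries, the only gene of the 10 with the same base throughout.

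Nelfb, the gene of the subunit also known as Cobra1, lies on the minus strand of chromosome 2 (25199712 to 25211489). Its Ser5P covered 600 and 874 bp in KD and 716 and 694 bp in control libraries. Ser2P covered 756 and 668 bp in KD against 537 and 506 bp in control libraries, with both KD values above both controls. That difference was 9.52 ± 5.22 points (limma, adjusted p = 0.381). Its summits all lay inside the gene, between 98 and 256 bp past the 5′ end.

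Nelfcd encodes the NELF-C/D subunit and lies on the plus strand of chromosome 2 (174415804 to 174427505). Ser5P covered 918 and 591 bp in KD and 573 and 891 bp in control libraries, a spread within each line far above the difference of their means. Ser2P covered 681 and 683 bp in KD and 693 and 532 bp in control libraries. Nelfe encodes the RNA-binding NELF subunit and lies on the plus strand of chromosome 17 (34850391 to 34856372). It had the lowest mean promoter coverage of the 10 genes, 599.6 bp, above 21.2% of the genes marked in all 8 libraries. Ser5P covered 864 and 610 bp there in KD against 305 and 500 bp in control libraries, and Ser2P 451 and 953 bp in KD and 552 and 562 bp in control libraries. The Ser5P lines did not overlap, and their difference was 16.72 ± 8.99 points (limma, adjusted p = 0.831).

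Paf1 and Ctr9 encode a core subunit and the scaffold of the PAF complex, which travels with elongating polymerase. Both lie on the plus strand of chromosome 7, at 28392996 to 28399383 and at 111028951 to 111056377. At the Paf1 promoter Ser5P covered 770 and 1080 bp in KD and 792 and 903 bp in control libraries, and Ser2P 887 and 897 bp in KD and 961 and 770 bp in control libraries. At Ctr9 Ser5P covered 579 and 862 bp in KD and 854 and 937 bp in control libraries. Ser2P there covered 829 and 989 bp in KD and 685 and 837 bp in control libraries. The lines overlapped for both marks in both genes. The mean Ser5P promoter coverage of Ctr9 was lower in KD, with a difference of -8.75 ± 6.07 points (limma, adjusted p = 0.922). It was the 1 gene of the 10 with that sign in the full window, whereas 5 had it with 500 bp to each side, and 2 to 5 had it without single Ser5P libraries, Ctr9 each time. The authors' fold over local background was read from the strongest promoter peak of each list. By it Ctr9 (9.50 to 11.6), Ell (8.84 to 10.9) and Paf1 (7.90 to 11.1) had strong promoter peaks in every list. Folds reached lowest at Nelfe (4.66 to 8.0), Nelfb (4.68 to 8.21) and Supt4a (4.69 to 6.98).

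Supt6 encodes a histone chaperone that binds elongating polymerase, on the minus strand of chromosome 11 (78206749 to 78245972). Ser5P covered 704 and 870 bp of its promoter in KD and 797 and 744 bp in control libraries, which overlapped. Ser2P covered 868 and 735 bp in KD against 547 and 526 bp in control libraries, which did not. The Ser2P difference was 13.24 ± 4.48 points (limma, adjusted p = 0.199). Ell encodes an elongation factor of the super elongation complex, known in human leukaemia as a fusion partner of MLL, on the plus strand of chromosome 8 (70539675 to 70592858). Ser5P covered 1058 and 1017 bp of its promoter in KD against 980 and 980 bp in control libraries, which did not overlap, while Ser2P covered 1065 and 1241 bp in KD and 1236 and 882 bp in control libraries.

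Across the 10 promoters, Ser5P coverage was above both controls in both KD libraries at 3 genes (Supt4a, Nelfe and Ell), against 25.6% of 9799 genes with a Ser5P promoter peak. For Ser2P it was so at 3 genes (Supt5, Supt6 and Nelfb), against 46.1% of 10049 genes. Both counts were near or below the share over all genes. Coverage below both controls in both KD libraries was found at 0 of the 10 genes for Ser5P and for Ser2P, against 10.8% and 2.21% of genes. No promoter was called by presence, as KD-only or control-only calls were made at 0.409% and 0.446% of all genes for Ser5P and at 1.1% and 0.2% for Ser2P.

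No gene of the 10 passed limma at the promoter in either KD comparison, where 0% of 9814 genes fitted were called. At an unadjusted p under 0.05 limma listed 710 genes for Ser5P, none of them among the 10, and 1798 genes for Ser2P (18.3%), of which Supt5 and Supt6 were 2. On simulated shifts in the Ser5P KD libraries the promoter fit recovered 0% of genes shifted by as much as 40 points, so its 0 calls say nothing on whether promoters stayed the same. The median difference over the 10 genes was 2.87 points for Ser5P and 7.32 points for Ser2P, beside 1.65 and 7.35 points over all genes fitted. An exact permutation test of a single gene cannot go below p = 0.33 with 2 libraries against 2.

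**Figure D2:**
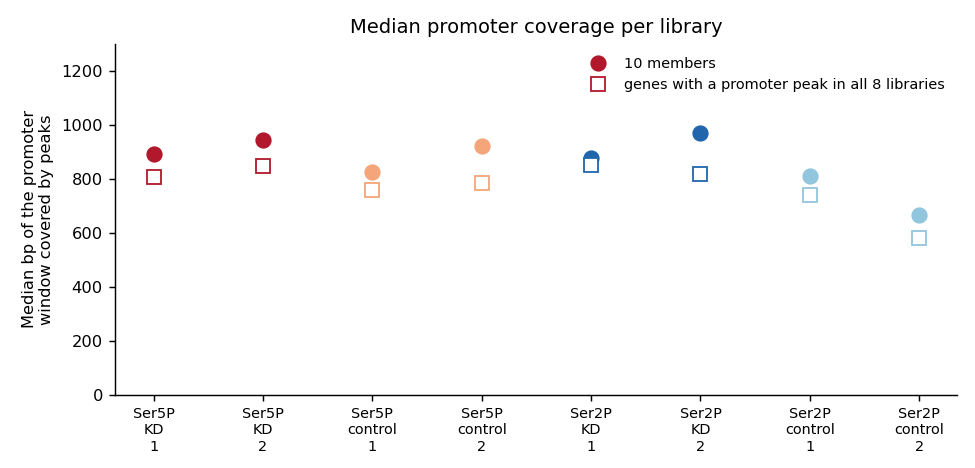
Median promoter coverage (bp, y axis from 0) in each of the 8 libraries, for the 10 genes (filled circles) and for the 7426 genes with a promoter peak in all 8 libraries (open squares). The circles lie above the squares in every library and both are lowest in Ser2P control 2, at 666 and 581 bp.

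The library medians of the 10 genes and of the 7426 marked genes ran alongside each other. For Ser5P the median of the 10 genes was 891 and 945.5 bp in KD and 825.5 and 920 bp in control libraries, and that of the marked genes 807 and 847 bp in KD and 759 and 786 bp in control libraries. For Ser2P it was 877.5 and 971 bp in KD and 810.5 and 666 bp in control libraries, beside 850 and 817 bp in KD and 739 and 581 bp in control libraries for the marked genes. Over 8 libraries the median gene of the 10 had 852 bp and the median marked gene 775 bp. The 5 genes outside the list whose coverage over 3 windows and 8 libraries was nearest to the median profile of the 10 were Pdk3, Yeats4, Mrpl57, Slc35a4 and Irak4. Their mean absolute difference was 59.1 to 65.9 bp over 24 values, and their profile was a covered promoter with little beyond it.

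The strongest promoter peak of the 10 genes in 4 libraries gave 40 summits per antibody, so each gene was counted 4 times. The summit lay upstream of the 5′ end in 30 of 40 cases for Ser5P and in 28 of 40 for Ser2P, with medians of −69 and −79.5 bp. At Supt4a, Nelfa, Paf1, Ctr9 and Ell it lay upstream in every library. The share over all genes was not computed. Ell had its summits between −310 and −267 bp, Supt5 between −123 and 56 bp, Nelfcd between −20 and 67 bp, Paf1 between −84 and −27 bp and Nelfe between −129 and 75 bp. For Ctr9 the summit stood at −26 bp in 5 libraries, within a range of −106 to −26 bp. That of Supt6 stood at 21 bp in 4 libraries, within a range of −145 to 22 bp.

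**Figure D3:**
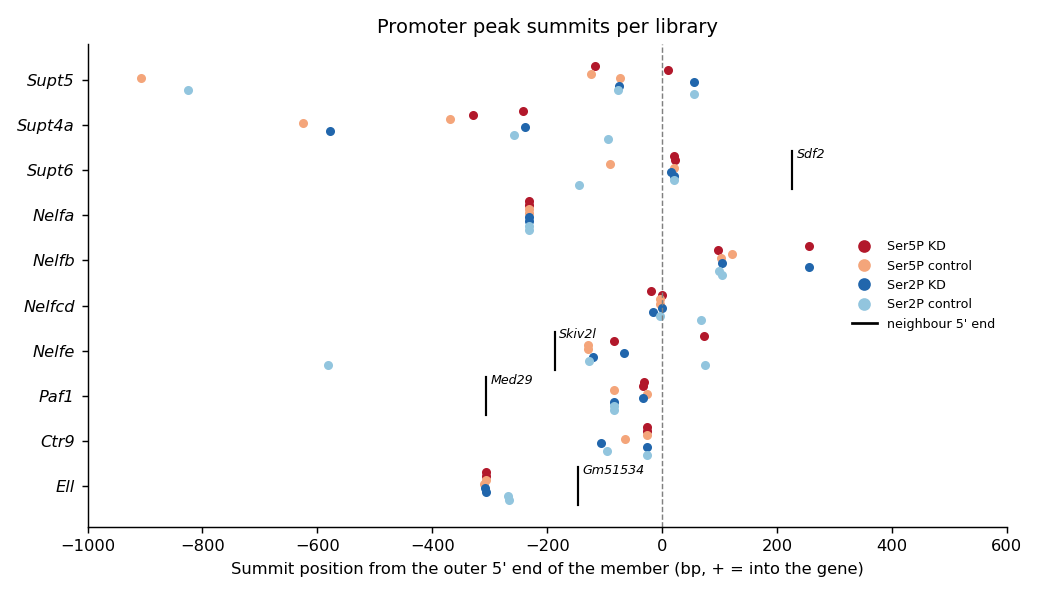
Summits of all promoter peaks (x axis, bp from the outer 5′ end, positive into the gene) for the 10 genes, with a point per peak coloured by group and black bars at the 5′ ends of neighbouring genes. The Nelfa points coincide at −232 bp, the Nelfb points all lie inside the gene, and the 5′ ends of Sdf2, Skiv2l, Med29 and Gm51534 lie within 1000 bp of the 5′ ends of Supt6, Nelfe, Paf1 and Ell.

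For 4 of the 10 genes another gene begins within 1000 bp, so a peak there cannot be assigned to a single gene. Sdf2 begins 226 bp inside Supt6 on the other strand. Skiv2l begins 187 bp upstream of Nelfe, Med29, a Mediator subunit gene, 306 bp upstream of Paf1, and the lncRNA gene Gm51534 146 bp upstream of Ell, all pointing away. Peaks carry no strand in CUT&Tag. The Ell summits lay inside Gm51534, and those of Paf1 between its own 5′ end and that of Med29. Supt6 also had an upstream peak in all 8 libraries, with summits at −2077 to −2014 bp, which lies inside Sdf2.

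Past the promoters the genes fell into those with peaks and those without. Supt4a, Nelfe and Paf1, the shortest of the 10 at 5.98 to 6.39 kb, had no peak in the gene body or 3′ end window of any library. Nelfa and Ell, at 38.4 and 53.2 kb, had a gene body peak in all 8 libraries, against 17.6% of 19028 genes with a gene body window. Gene body peaks per library numbered 6 and 10 in Ser5P KD, 8 and 9 in Ser5P control, 14 and 11 in Ser2P KD and 9 and 6 in Ser2P control libraries. Exon and intron annotation on this build was not used here.

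**Figure D4:**
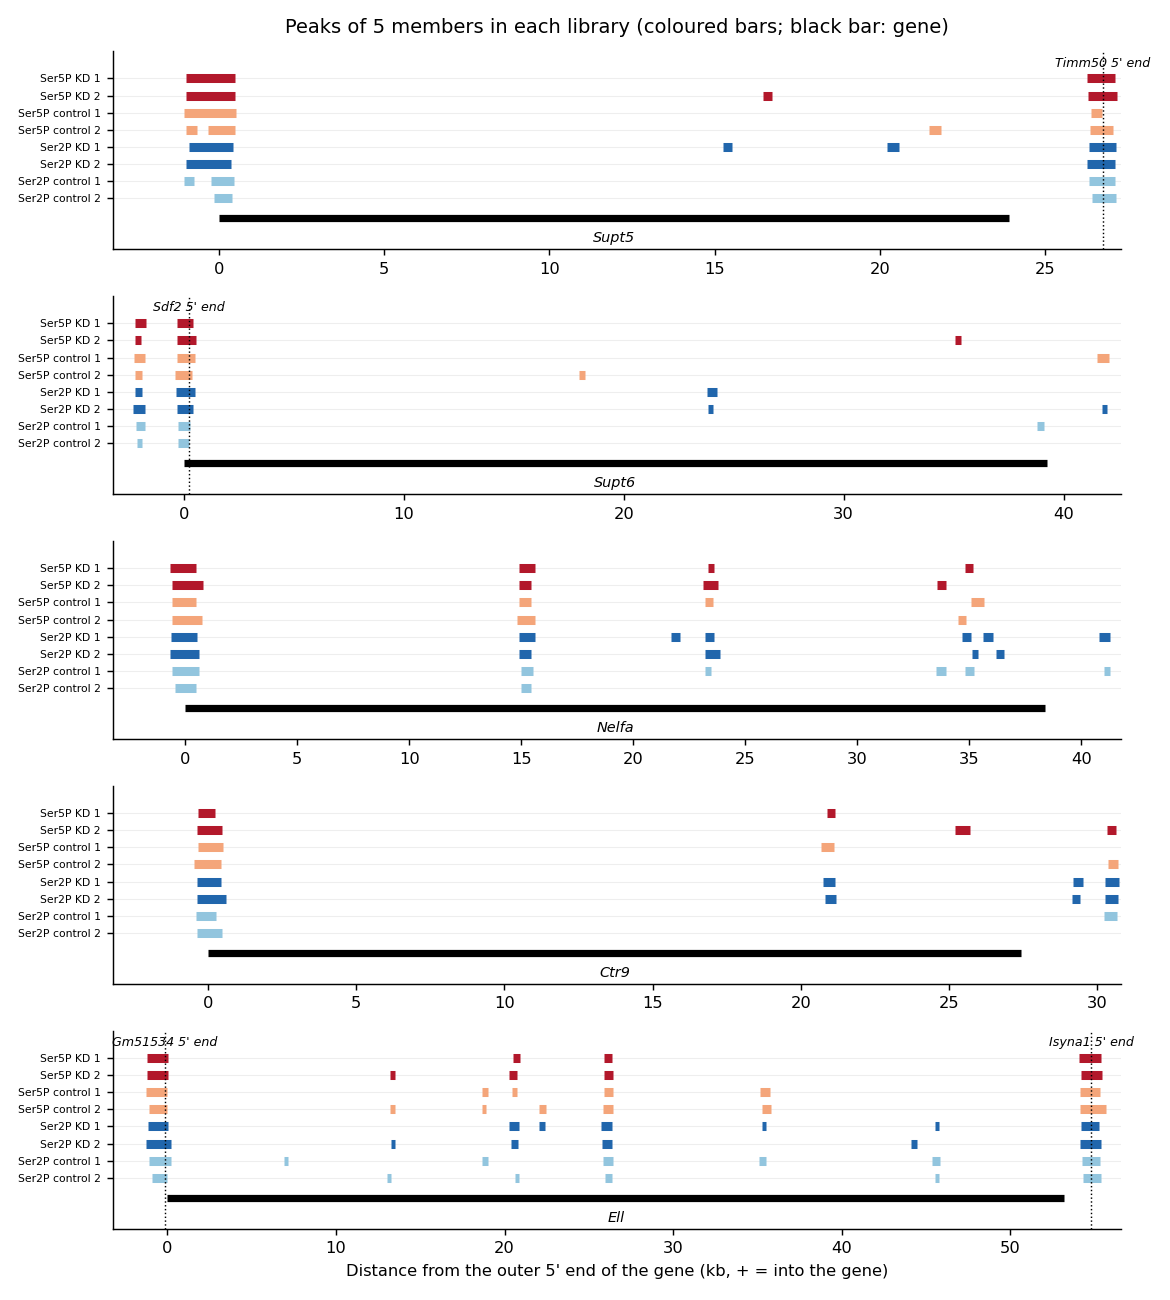
Peaks of each library (coloured bars, a row per library) along Supt5, Supt6, Nelfa, Ctr9 and Ell, drawn to scale by distance from the outer 5′ end in kb, with the gene as a black bar and the 5′ ends of neighbours as dotted lines. Promoter peaks stand in every row, Nelfa and Ell have a body peak in every row at about 15.2 and 26.1 kb, and the Supt6 site at about 23.95 kb stands in the Ser2P KD rows only.

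At Supt6, Ser2P peaks covered 448 and 233 bp of the gene body in KD and 0 and 0 bp in control libraries, from a site whose summits lay 23879 and 24015 bp inside the gene (chr11:78221742-78222189). No Ser5P library had that site. Elsewhere in the body Ser5P had a peak in KD 2 (257 bp) and in control 2 (236 bp), each at its own place. The Ser2P difference was 0.91 ± 0.34 points (limma, adjusted p = 0.387). Both peaks were weak, with −log10 q of 3.32 and 3.59 in the authors' lists, and neither remained with a −log10 q of at least 5 or with lists of equal length.

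At Ctr9, Ser2P peaks covered 432 and 358 bp of the gene body in KD and 0 and 0 bp in control libraries, at a site about 21.0 kb inside the gene (chr7:111049655-111050135). Ser5P had the same site in KD 1 and in control 1. With a further site in KD 2, Ser5P coverage of the body was 274 and 496 bp in KD and 425 and 0 bp in control libraries, which overlapped. The Ser2P difference was 1.55 ± 0.65 points (limma, adjusted p = 0.438), and the KD values stayed at 432 and 358 bp with both stricter peak sets. With a −log10 q of at least 5, Ser5P in the body covered 0 and 0 bp in KD and 425 and 0 bp in control libraries. Past its 3′ end, Ser2P covered 517 and 423 bp in KD against 186 and 0 bp in control libraries. Ser5P covered 0 and 89 bp in KD and 0 and 47 bp in control libraries of that window. The Ser2P signal came from a site with summits 29426 and 29274 bp from the 5′ end in KD alone and from another at about 30.4 kb, at the edge of the window, which 5 libraries had. The difference at the 3′ end was 9.42 ± 2.69 points (limma, adjusted p = 0.169). With both stricter peak sets the Ser2P coverage was 168 and 139 bp in KD and 0 and 0 bp in control libraries, which made Ctr9 KD-only there. The site found in KD alone, with −log10 q of 3.75 and 2.51, dropped out of both sets. What remained was the edge of the 30.4 kb site. Ser2P control 1 had that site too, with a −log10 q of 3.55, and lost it in both sets.

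Thus Supt6 and Ctr9 were called KD-only for Ser2P in the gene body, 2 of the 10, against 2.23% of genes. That share is 425 of 19028 genes with a gene body window. Of those genes 8653 had a Ser2P body peak, as 7 of the 10 did. Control-only calls were 0 of the 10, against 0.641%. The Ser2P KD libraries were the deeper ones, and without Ser2P control 2 Nelfcd became control-only, 1 gene in place of 0. By the order of values, 3 of the 7 genes of the list with a Ser2P body peak (Supt6, Nelfa and Ctr9) had it in both KD libraries above both controls, against 30.8% of 8653 genes with a Ser2P body peak, and 0 of the 7 had the reverse order, against 4.04%. For Ser5P no body was called by presence, against 1.06% KD-only and 1.53% control-only, and in 0 of the 6 with a Ser5P body peak did both KD libraries lie above both controls, against 13.4%. Leaving out Ser5P KD 1 made Nelfb KD-only, and leaving out Ser5P control 1 made Ctr9 KD-only, 1 gene each time in place of 0.

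Nelfa carried peaks at several places along its body. Ser5P covered 1327 and 1619 bp in KD and 1481 and 1125 bp in control libraries, and the lines overlapped. Ser2P covered 2375 and 1779 bp in KD against 1636 and 486 bp in control libraries, with the low value in the shallow control 2. That difference was 2.79 ± 1.31 points (limma, adjusted p = 0.491), and with lists of equal length Ser2P was 1090 and 1537 bp in KD and 1186 and 486 bp in control libraries, which overlapped. The site common to all 8 libraries lay about 15.2 kb inside the gene (chr5:33920705-33921496), with authors' folds of 7.05 to 10.2, beside 7.65 to 8.80 at the Nelfa promoter. A site at about 23.4 kb was found in 6 libraries.

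Ell showed the other order in its body, for Ser5P, in a comparison that was not planned. Ser5P covered 852 and 1316 bp in KD and 1786 and 2089 bp in control libraries, with both KD values below both controls, as at 16.3% of 8072 genes with a Ser5P body peak. It was the only one of the 6 genes of the list with a Ser5P body peak in that order. The difference was -1.67 ± 0.92 points (limma, adjusted p = 1). Its sites at about 18.9 and 35.4 kb had a Ser5P peak in both controls and in neither KD library. The Ser5P lists held 21574 and 24509 peaks in KD and 23964 and 25441 in control libraries. Their background pileups were 0.649 and 0.841 in KD and 0.566 and 0.639 in control libraries, and the part of depth was not tested. The KD values stayed lower with a −log10 q of at least 5, at 852 and 1006 bp in KD against 1786 and 1415 bp in control libraries. With lists of equal length they were 852 and 1006 bp, against 1786 and 2089 bp in control libraries. Ser2P covered 2148 and 1600 bp of the body in KD and 2041 and 1124 bp in control libraries, and overlapped. The site at about 26.1 kb (chr8:70565371-70566134) was marked in all 8 libraries.

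The remaining bodies held scattered peaks. Supt5 had Ser2P peaks in KD 1 only (659 bp), and Ser5P peaks in KD 2 (282 bp) and control 2 (378 bp), all at different places. Nelfb had Ser5P in KD 2 (337 bp) and Ser2P in KD 2 (233 bp) and control 2 (263 bp). In Nelfcd 52 bp of Ser2P in control 1 reached into the body window.

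**Figure D5:**
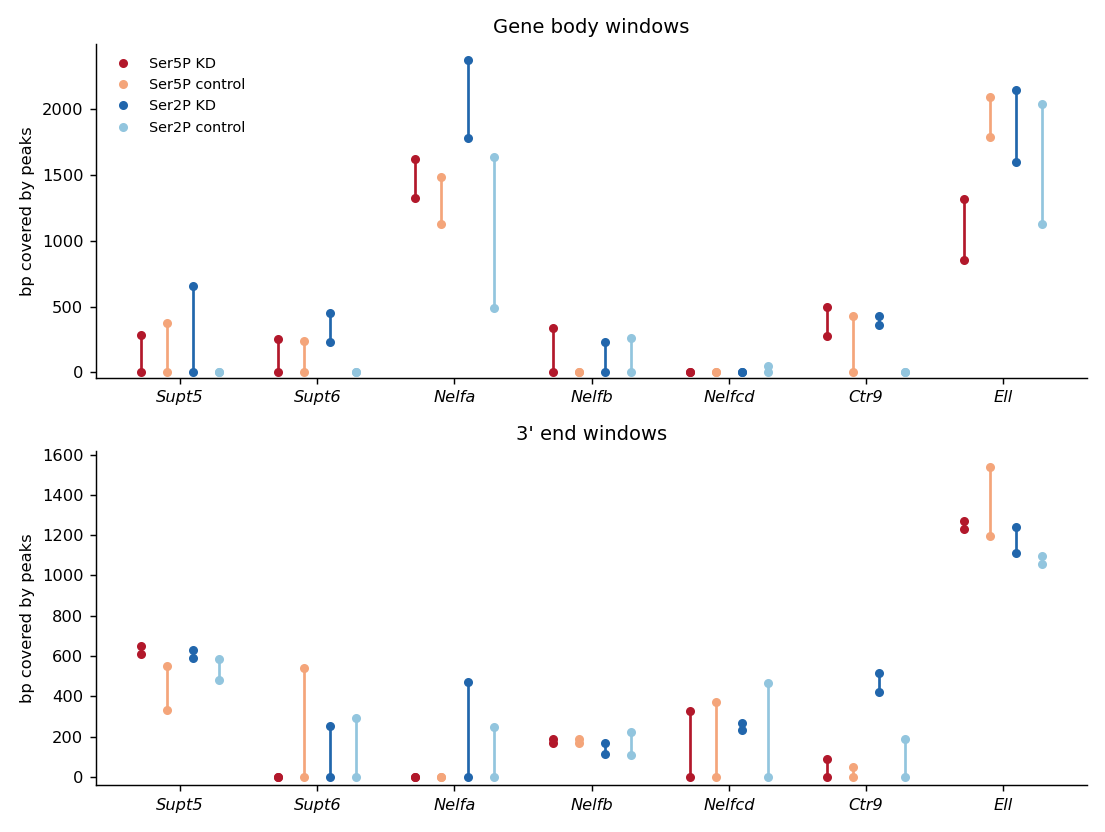
Coverage (bp, y axes from 0) of the gene body windows (upper panel) and of the 4000 bp 3′ end windows (lower panel) in each library for the 7 genes with a peak there, with a line joining the 2 libraries of a group. Ell stands apart in the upper panel with both Ser5P KD points, 852 and 1316 bp, below both Ser5P control points, and Ctr9 in the lower panel has its high points in Ser2P KD.

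In the 3′ end windows, peaks of both marks stood in all 8 libraries at 3 of the 10 genes (Supt5, Nelfb and Ell), against 7.67% of genes. At each of them the 5′ end of a neighbour lies in the extended interval. Timm50 begins 26758 bp from the 5′ end of Supt5, Tor4a 14676 bp from that of Nelfb and Isyna1 54806 bp from that of Ell, and the summits lay near those positions, so these peaks cannot be told apart from promoter peaks of the neighbours. At Supt5 Ser5P covered 651 and 612 bp in KD against 334 and 551 bp in control libraries, and Ser2P 590 and 630 bp in KD against 585 and 483 bp in control libraries. Both orders had KD above control. For Ell it was 1272 and 1232 bp of Ser5P in KD and 1195 and 1540 bp in control libraries, and 1114 and 1240 bp of Ser2P in KD against 1097 and 1057 bp in control libraries. Nelfb had 111 to 221 bp in every library, the edge of the peak near the 5′ end of Tor4a.

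The other 3′ end windows held peaks in some libraries. At Nelfcd Ser2P covered 269 and 234 bp in KD and 465 and 0 bp in control libraries, and Ser5P 0 and 326 bp in KD and 0 and 371 bp in control libraries. Nelfa had Ser2P in KD 1 (473 bp) and control 1 (247 bp), and no Ser5P in any library. Supt6 had Ser5P in control 1 (542 bp) and Ser2P in KD 2 (255 bp) and control 1 (292 bp). The Nelfa peaks lay inside a neighbouring gene, as did the Supt6 peaks of 542 and 255 bp. Another gene also reaches into the 3′ end window of Nelfcd, so peaks there cannot be assigned to a single gene. Ser2P was above both controls in both KD libraries at 3 of the 7 genes of the list with a peak there (Supt5, Ctr9 and Ell), against 29.2% of 5558 genes with one. Ser5P was so at 1 of 6 (Supt5), against 15.8% of 4387. The reverse order was found at 0 of these genes for Ser2P and Ser5P, against 2.61% and 10.1%. No 3′ end was called by presence, against 1.63% of genes KD-only and 0.26% control-only for Ser2P, and 0.548% and 0.567% for Ser5P. Without Ser2P control 1, Nelfcd and Ctr9 became KD-only there for Ser2P, 2 genes in place of 0, and without Ser5P control 2, Supt6 became control-only for Ser5P.

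In the gene body fit limma called 75 genes higher (0.933%) and 19 lower (0.236%) in Ser2P KD than in control, and 20 higher (0.249%) and 25 lower (0.311%) for Ser5P, out of 8040 genes. None of the 6 genes of the list that were fitted passed. At an unadjusted p under 0.05 limma listed 947 bodies for Ser2P, Supt6 among them, and 457 for Ser5P, none of the 6 among them. In the 3′ end fit of 4483 genes 0% passed in either KD comparison, the 7 fitted genes of the list included. On shifts of 10 points simulated in the Ser5P KD libraries this fit recovered 4%, so its 0 calls say little on differences of that size. At the same unadjusted level it listed 714 genes for Ser2P at the 3′ end, Ctr9 among them, and 278 for Ser5P. The median difference for Ser2P was 1.21 points over the 6 bodies, beside 0.45 points over all bodies fitted, and 1.90 points over the 7 3′ ends, beside 3.31 points.

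Ser5P was then set against Ser2P over 4 libraries each. Supt5 had 1408.5 ± 170 bp of Ser5P and 1041 ± 379 bp of Ser2P at the promoter (SD, n = 4 each; exact permutation p = 0.171, two-sided). The difference was 142 bp within KD and 593 bp within control. The 4 libraries of a mark were 2 KD and 2 control ones, so these SDs also hold any gap between the lines. In limma, which fits the 4 groups apart, the Supt5 difference was 18.37 ± 5.69 points (adjusted p = 0.228). Supt4a had 1156.5 ± 102 bp of Ser5P and 987 ± 136 bp of Ser2P (exact permutation p = 0.0571), with 180.5 bp within KD and 158.5 bp within control. The values of both marks overlapped at each of the 10 promoters, while all 4 Ser5P values lay above all 4 Ser2P values at 5.03% of 10342 genes and below them at 0.812%. The smallest p this test allows is 0.0286, and those of the other 8 promoters ran from 0.229 to 0.829.

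Among those 8, Ser5P was wider on average than Ser2P at Supt6, Nelfa, Nelfb, Nelfcd and Paf1 and narrower at Nelfe, Ctr9 and Ell, with differences of the means between -97.25 and 109.75 bp. Limma called 51 promoters higher in Ser5P (0.52%) and 7 lower (0.0713%), none of them among the 10. At an unadjusted p under 0.05 it listed 1443 promoters (14.7%), of the 10 only that of Supt5. Past the 3′ end of Ctr9, Ser5P averaged 34.0 ± 42.8 bp and Ser2P 281.5 ± 234 bp (exact permutation p = 0.143), a difference of -425.5 bp within KD and of -69.5 bp within control. In limma it was -6.19 ± 1.90 points (adjusted p = 0.180). In none of the 7 gene bodies and 7 3′ ends with a peak did all 4 values of a mark lie apart from all 4 of the other. Ser5P lay above Ser2P in this way in 1.86% of bodies and 2.04% of 3′ ends and below it in 2.06% and 1.93%. Limma called 0.398% of bodies higher and 0.572% lower in Ser5P, and 0.178% of 3′ ends in each direction, again none of the 10. At the unadjusted level it listed 12.0% of bodies, none of the 10 among them, and 17.5% of 3′ ends, Ctr9 among them. The antibodies also differ in depth and peak width, so the comparison is of peak lists and not of amounts of polymerase.

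A wider list of 36 genes of the same machinery, among them the genes of FACT, P-TEFb, the rest of the PAF complex and the super elongation complex, was read in the same way. Both marks stood at the promoter in all 8 libraries for 28 of the 36, against 34.5% of all genes, and 0 were called by limma in any window. At an unadjusted p under 0.05, limma listed 4 of the 36 promoters for Ser5P and 10 for Ser2P, beside 7.23% and 18.3% of all promoters fitted. It listed 3 and 2 of 30 bodies, beside 5.68% and 11.8%, and 1 and 3 of 14 3′ ends, beside 6.20% and 15.9%. By presence, Ice2, of the little elongation complex, was KD-only for Ser2P at the promoter (1.1% of all genes), with 664 and 539 bp in KD and 0 and 0 bp in control libraries. In the 3′ end window Ser2P was KD-only (1.63% of all genes) at Iws1, a partner of Supt6, with 196 and 582 bp in KD and 0 and 0 bp in control libraries, and at Rtf1, with 334 and 350 bp in KD and 0 and 0 bp in control libraries. Ccnt1, the cyclin T1 gene, was control-only for Ser2P in the body (0.641%), with 0 and 0 bp in KD and 273 and 239 bp in control libraries. For Ser5P, the body was KD-only (1.06%) at Iws1 (186 and 171 bp in KD, 0 and 0 bp in control) and control-only (1.53%) at Ice2 (0 and 0 bp in KD, 242 and 351 bp in control). The 3′ end of Mllt1 was control-only for Ser5P (0.567%), with 0 and 0 bp in KD and 313 and 504 bp in control libraries.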

How the data were processed

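The authors made CUT&Tag libraries of MEL cells and deposited a MACS2 peak list for each library. MACS2 2.2.7.1, Bowtie2 2.3.5, cutadapt 2.7, Picard 2.21.4, SAMtools 1.9 and deepTools 3.3.1 were used with GRCm38 (mm10), per the submitters' processing notes. The sources used here do not give the settings of these tools, nor say whether peaks were called against a control library. For each peak the authors deposited a display score, a fold as a ratio to local background, a −log10 p-value and a −log10 q-value, all specific to their list. Fold and q were used only to describe, rank or filter peaks. Read totals were not used here. Background pileup was solved from fold and p for 99.87% to 99.99% of peaks, with a tolerance of 0.001.

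Gene intervals came from the RefSeq table of GRCm38.p6, and strand from the RefSeq promoter table (17492 genes) or from GENCODE vM1 by symbol (3649) or synonym (394). The other 352 protein-coding genes, and the 24 to 30 peaks of a library that lay off the main chromosomes, did not enter. The supplied genome is of another build and gave no coordinates.

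The percentage of each window covered was fitted with limma 3.58.1 (trend, robust) in R 4.3.3, with the 4 groups over 8 libraries, for genes with a peak in at least 2 libraries. P-values were adjusted by the Benjamini-Hochberg method over all genes fitted, with a threshold of 0.05. All 10 genes were fitted at the promoter, 6 in the body and 7 at the 3′ end, and those left out had a peak in fewer than 2 libraries. Single values were compared by two-sided exact permutation tests, with 70 arrangements for 4 libraries against 4. Simulated shifts in the Ser5P KD libraries tested the fits. At 10 points 0% were recovered at promoters, 78% in bodies and 4% at 3′ ends. At 20 points 0% were recovered at promoters, 92% in bodies and 70% at 3′ ends. Shifts below 10 points were not simulated. As alternatives, peaks were required to reach a −log10 q of 5, and the fits and calls were repeated with lists of 20793 peaks each, a promoter window of 500 bp each side, a 3′ end window past the end only, a minimum of 200 bp covered, no filter on low values, a replicate block and leaving out each library. The comparisons of Ser5P KD with control in the body and at the 3′ end were not planned, and their alternatives were added after seeing the data. The genes, lists, motifs and windows were chosen with earlier results of these data known. The genes named were the 10, their neighbours, every called gene of the wider list and the 5 genes of nearest profile. Some genes that this rule or the marker lists take are not reported here.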

Additional observations from a re-analysis of the deposited data

Results flagged for a closer look

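The upstream windows, 3000 to 1000 bp before the 5′ end, entered no comparison of lines. At Supt4a, Ser5P peaks covered 35 and 54 bp there in KD (mean 44.5 bp) and 0 and 0 bp in control libraries, the edge of the promoter peak. At Ell, Ser2P peaks covered 138 and 238 bp there in KD (mean 188 bp) against 60 and 0 bp in control libraries, also the edge of the promoter peak. Both KD means lay above the controls, and the part that the wider peaks of the KD libraries have in this was not tested.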

How the results depend on the processing

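None of the 10 genes was called by limma in the KD comparisons of either mark, or between the marks, in the promoter, body or 3′ end window under the alternatives run, and with the replicate number as a block (replicate block) the count was 0 in each of these comparisons. Within an antibody, same-numbered KD and control libraries hardly varied together. Their promoter deviations from the group means correlated across genes at 0.0379 for Ser5P and 0.00187 for Ser2P. Whether same-numbered libraries of the 2 antibodies pair was not tested, and the exact tests of Ser5P against Ser2P took them as unpaired. The count of genes with a KD-only Ser2P body peak was 2 (Supt6 and Ctr9) and became 1 (Ctr9) with a −log10 q of at least 5, with lists of equal length and with the 3′ end window past the end only, in which case a peak of control 1 fell into the Supt6 body. Leaving out each library gave 2 to 3. Control-only Ser2P body peaks ranged from 0 to 1 without each library. KD-only Ser2P peaks at the 3′ end numbered 0 and became 1 (Ctr9) with a −log10 q of at least 5, with equal lists and with at least 200 bp covered, and leaving out each library gave 0 to 2. No direction of a called value turned round. Beyond the changes due to windows and left-out libraries, the cause was not tested. For Ser5P, alternatives in the gene body and 3′ end were added after seeing the data. KD-only Ser5P body peaks numbered 0 and became 1 (Nelfb) with the 500 bp promoter window, and leaving out each library gave 0 to 1. Control-only Ser5P peaks at the 3′ end ranged from 0 to 1 without each library. Of 70 single differences, 6 moved by more than the replicate SD with the stricter q, 4 with equal lists, 7 with the 500 bp promoter window and 3 with the 3′ end window past the end only. Some of the 70 could not move. The 3′ end window does not enter promoter values. Stricter peak sets cannot add a peak to bodies without one, as in Supt4a, Nelfe and Paf1. With 2 libraries a group the promoter fit recovered none of the shifts simulated in the Ser5P KD libraries, and the files give peaks and not read counts, so polymerase below the peak threshold was not seen.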
